A study of Mus musculus with 6 samples.

Results

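The expression of 9 receptor tyrosine kinase genes was followed in intestinal adenomas of mice with and without the miR-34 microRNAs. They were Axl, Met, Pdgfra, Pdgfrb, Csf1r and Igf1r, named as receptor kinases reported to be miR-34 targets, and the ERBB family receptors Egfr, Erbb2 and Erbb3. The 9 symbols were chosen by name and each matched 1 row of the 46078 genes in the count tables. All 9 passed the filter on low counts, which left 17254 genes for testing. The knockout group held 3 mice of the genotype miR-34a/b/c-/-;ApcMin/+ and the wild-type group 3 mice of the genotype miR-34a/b/c+/+;ApcMin/+. The mice of both groups were of the mixed strain C57BL6/SV129, carried the ApcMin allele, which cuts short a brake on Wnt signaling and causes intestinal polyps, and were 18 weeks old. Each RNA sequencing library was made from small intestinal adenomas of 1 mouse, pooled from 3 tumors, so the mouse is the replicate and differences between tumors of a mouse are not seen. The tissue is bulk tumor, in which epithelial, stromal and immune cells are mixed.

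A receptor tyrosine kinase spans the cell membrane, binds a secreted or membrane-bound ligand outside the cell and, once paired with a second receptor, adds phosphate to tyrosines of its partner. Adaptor proteins bind these tyrosines and pass the signal to Ras and ERK and to PI3 kinase and Akt, which control growth, survival and movement. In the gut the ERBB receptors, Met and Igf1r are best known from the epithelium, Pdgfra from fibroblasts under the epithelium, Pdgfrb from pericytes and fibroblasts, Csf1r from macrophages, and Axl from stromal cells and phagocytes. The miR-34 microRNAs are induced by p53 and lower the output of mRNAs whose 3′ UTR pairs with their seed, bases 2 to 8 of the mature strand.

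Mature strands of miR-34a and miR-34b are shown because their seed defines the sites searched in the receptor mRNAs. The matching strand of miR-34c, which was also deleted, was missing from the sequences used and is not shown. The sequences are those of RefSeq (GRCm38.p6), 5′ to 3′, with the seed in capitals. The miR-34a strand lies on chromosome 4 (plus strand) and the miR-34b strand on chromosome 9 (minus strand), and they have the same seed.
mmu-miR-34a-5p: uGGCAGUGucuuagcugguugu
mmu-miR-34b-5p: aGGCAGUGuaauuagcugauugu

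The sites searched were CACTGCC (7mer-m8, pairing with bases 2 to 8), ACTGCCA (7mer-A1, pairing with bases 2 to 7 before an A) and CACTGCCA (8mer, which holds both and was counted once). They were sought on the sense strand of the longest 3′ UTR annotated for each gene in GENCODE M21 (GRCm38). Axl, Met, Pdgfra, Pdgfrb, Csf1r and Egfr held 10 such sites, 4 of them 8mers, and Igf1r, Erbb2 and Erbb3 held none. The 7 sites of Axl, Met, Pdgfra and Egfr are shown in windows of 30 bases of the transcript, with the site in capitals, because they are the stretches through which these mRNAs could pair with the seed above.
Axl, 8mer, bases 44 to 51 of the UTR (chr7:25758607-25758636, minus strand): ctcaggacccaagctaggCACTGCCActgg
Met, 7mer-m8, bases 77 to 83 (chr6:17571881-17571910, plus strand): tcccttccccaacagttctCACTGCCtggc
Met, 7mer-m8, bases 2052 to 2058 (chr6:17573856-17573885, plus strand): taaagaattagatatttgtCACTGCCtata
Pdgfra, 7mer-A1, bases 2797 to 2803 (chr5:75197878-75197907, plus strand): ctatgtagacttggagaatACTGCCAaaat
Pdgfra, 7mer-m8, bases 2826 to 2832 (chr5:75197907-75197936, plus strand): tgtgtatgacaagctgtatCACTGCCtttg
Egfr, 7mer-m8, bases 1580 to 1586 (chr11:16913416-16913445, plus strand): caacccgcaggttgagagcCACTGCCttca
Egfr, 8mer, bases 3212 to 3219 (chr11:16915049-16915078, plus strand): gtgaaaatcatgtaccctCACTGCCAatga

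The sites of Axl and the first of Met lie close to the stop codon, whereas the pair in Pdgfra lies near the end of a UTR of 3115 bases. Pdgfrb had an 8mer at bases 98 to 105 and a 7mer-A1 at bases 1320 to 1326 of 1678 bases, and Csf1r an 8mer at bases 180 to 187 of 1669 bases. Of the 14693 genes tested that have an annotated 3′ UTR, 3351 (22.8%) held at least 1 of these sites and 848 (5.77%) held an 8mer, against 6 and 4 of the 9 receptors. Axl, Met, Pdgfra, Pdgfrb, Csf1r and Igf1r were listed as reported targets, so their share is not independent evidence. Among them only Igf1r held no site. Of the ERBB receptors, which were listed as a family, only Egfr held one. The 3′ UTR of Igf1r is the longest of the 9 at 7267 bases and had no 7mer or 8mer, although 56.3% of the 1462 genes whose UTR was of like length (between 0.5 and 2 times as long) had one. For the receptors with a site, the share among genes of like UTR length was 53.0% for Egfr, 38.4% for Pdgfra and 32.1% for Met. It was 27.5% for Pdgfrb, 27.4% for Csf1r and 24.4% for Axl, so each lay above the 22.8% of all genes. For Erbb3 and Erbb2 this share was 29.1% and 19.8%. These letters describe the annotation, and a match is not a measured site of binding.

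**Figure D1:**
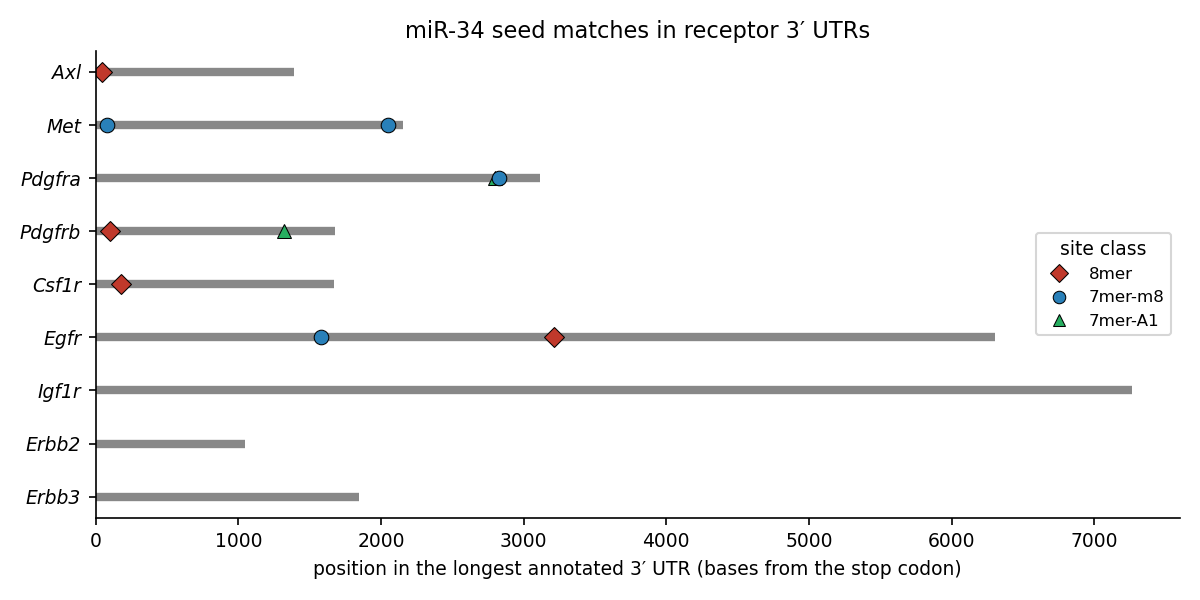
The longest annotated 3′ UTR of each receptor is drawn as a grey line from the stop codon (left) in bases, with symbols for the 3 classes of miR-34 seed match. There are 10 sites in 6 genes, and the lines of Igf1r, Erbb2 and Erbb3 carry none.

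Library totals ranged from 26375035 to 38354355 counts, and levels are given as CPM, the counts scaled to a common library size after TMM normalization. Along the first principal component (40.8% of the variance) knockout replicates 1 and 3 lay at one end (-53.0 and -49.2) and wild-type replicate 2 at the other (58.5), with the remaining libraries between them. The epithelial markers, among them Krt8, summed to between 13433 and 17778 CPM in the knockout and between 15877 and 20146 CPM in the wild-type libraries, and the Wnt target genes Axin2, Lgr5, Nkd1, Notum, Ascl2 and Sox9, known from adenomas, were detected in each library. All 6 of these Wnt targets had higher knockout means (median log2 fold change 0.28, 0 passed), but their sums of 1454, 392.2 and 1512 CPM in the knockout and 1181, 751 and 837 CPM in the wild-type libraries overlapped, with knockout replicate 2 the lowest. Of 17254 genes tested with edgeR's quasi-likelihood test, 16 (0.0927%) passed an adjusted p of 0.05, of which 7 (0.0406%) were higher and 9 (0.0522%) lower in knockout tumors. No receptor was among them. Over all genes tested, 8816 (51.1%) had a log2 fold change above 0, as did 6 of the 9 receptors. At an unadjusted p below 0.05, 3 of the 9 receptors (Axl, Pdgfra and Pdgfrb) were higher in knockout tumors, where 1010 of all genes (5.85%) reached that level and 565 (3.27%) did so with a higher knockout mean. DESeq2 and limma-voom also called 0 of the 9, with 3 and 2 at an unadjusted p below 0.05. Over all genes DESeq2 called 110 and limma-voom 21 at an adjusted p of 0.05. Their shares of all genes at an unadjusted p below 0.05 were not taken, here or for the lists below.

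The receptors of stromal and immune cells had higher means in knockout tumors. Pdgfra, a receptor for PDGF on fibroblasts (ENSMUSG00000029231, mm10 chromosome 5, 75152292 to 75198215), had 84.3, 70.03 and 163 CPM in the knockout libraries and 63.0, 26.1 and 60.7 CPM in the wild-type libraries. Each knockout value lay above each wild-type value, and knockout replicate 3 was the highest by a wide margin while wild-type replicate 2 was the lowest. Its log2 fold change was 1.08 ± 0.43 (SE, 3 mice per group, adjusted p = 0.793, edgeR), or 2.12-fold. Without knockout replicate 3 it was 0.62. The share of mitochondrial counts was 2.89, 4.18 and 2.31% in the knockout libraries, against 2.98, 4.005 and 3.08% in the wild-type ones. This share was lowest in knockout replicate 3 and highest in the replicate 2 library of each group, which were also the lowest of their group for Pdgfra, Pdgfrb and Axl, and its part in these values was not tested. Axl, the receptor for the vitamin K-dependent ligand Gas6 (ENSMUSG00000002602, chromosome 7, 25757273 to 25788705), had 43.4, 35.7 and 56.0 CPM in the knockout and 28.9, 21.5 and 34.2 CPM in the wild-type libraries. Those groups did not overlap either, though knockout replicate 2 and wild-type replicate 3 nearly met. The log2 fold change of Axl was 0.67 ± 0.23 (adjusted p = 0.793, edgeR) and it stayed between 0.48 and 0.84 whichever mouse was left out. Over all genes tested, 1011 (5.86%) had every knockout value above every wild-type value.

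Pdgfrb, the PDGF receptor of pericytes and other mural cells (ENSMUSG00000024620, chromosome 18, 61045150 to 61085061), had 37.4, 32.9 and 65.9 CPM in the knockout libraries and 28.9, 20.8 and 33.03 CPM in the wild-type libraries. The groups overlapped only by knockout replicate 2, which lay just under wild-type replicate 3. Its log2 fold change was 0.72 ± 0.30 (adjusted p = 0.793, edgeR), and 0.34 without knockout replicate 3. Csf1r, the receptor for the macrophage growth factors Csf1 and Il34, is the next receptor gene along chromosome 18 (ENSMUSG00000024621, 61105572 to 61132149), 20510 bases beyond the end of Pdgfrb. Csf1r had 25.6, 33.8 and 52.4 CPM in the knockout and 20.7, 24.8 and 37.1 CPM in the wild-type libraries. These groups overlapped, and the log2 fold change of 0.44 ± 0.32 (adjusted p = 0.813, edgeR) became 0.10 when knockout replicate 3 was left out, 0.26 when wild-type replicate 1 was, and 0.72 when wild-type replicate 3 was. Csf1r is uncertain in level, since 16.4% of its exon bases in the deposited row also lie in exons of Hmgxb3 on the opposite strand (6014 counts over the 6 libraries, against 6714 for Csf1r) and whether reads were counted by strand is not stated in the sources used here.

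**Figure D2:**
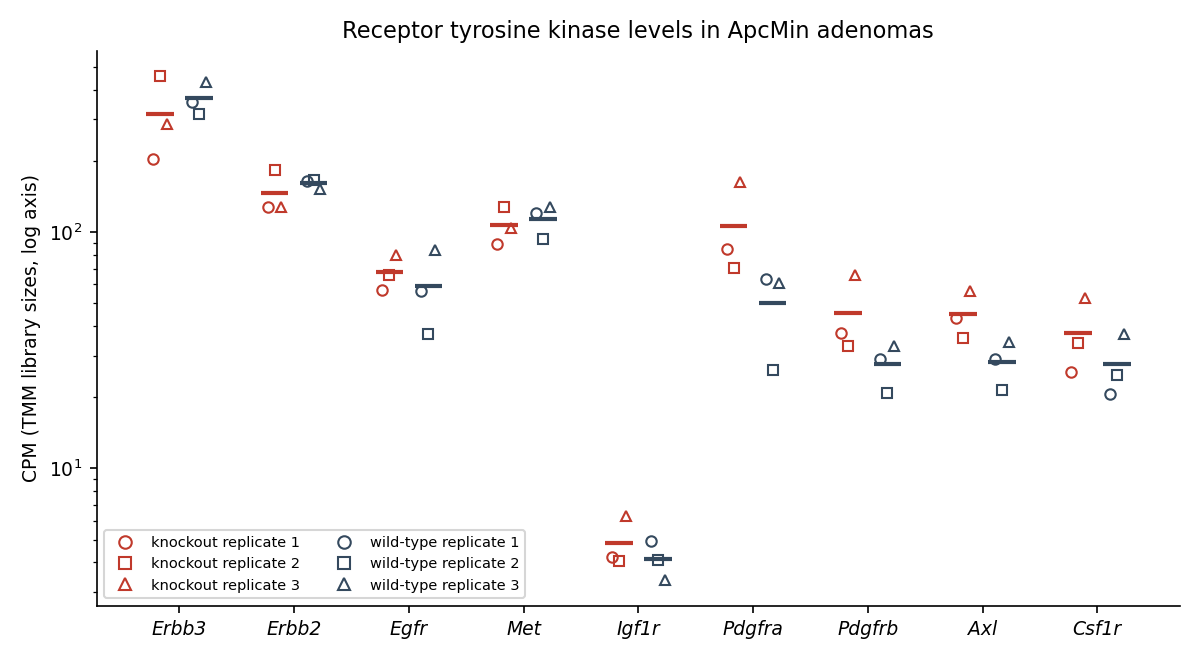
Levels of the 9 receptors in CPM on a log axis, with knockout libraries (red) left of wild-type libraries (dark blue), a symbol per replicate number and a bar at the mean of 3 mice. The groups separate for Pdgfra and Axl, and knockout replicate 3 is the highest library for Pdgfra, Pdgfrb, Axl, Csf1r and Igf1r.

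The epithelial receptors of the ERBB family showed smaller differences, in both directions. Erbb3, which binds neuregulins but has little kinase activity of its own and signals through partners such as Erbb2 (ENSMUSG00000018166, chromosome 10, 128567523 to 128589652), had 204, 456 and 285 CPM in the knockout libraries and 354, 315 and 432 CPM in the wild-type libraries. The wild-type values lay inside the wide knockout range, with knockout replicate 1 the lowest of all and knockout replicate 2 the highest. Its log2 fold change was -0.22 ± 0.30 (adjusted p = 0.876, edgeR), 0.0088 without knockout replicate 1 and -0.59 without knockout replicate 2. Erbb2, the family member with no known ligand of its own (ENSMUSG00000062312, chromosome 11, 98412470 to 98437716), had 128, 183 and 127 CPM in the knockout and 163, 166 and 152 CPM in the wild-type libraries. Knockout replicates 1 and 3 were below the narrow wild-type range and knockout replicate 2 was above it, and the log2 fold change was -0.14 ± 0.17 (adjusted p = 0.864, edgeR). Without knockout replicate 2 that value was -0.33, whereas it was -0.06 without knockout replicate 1 and -0.05 without knockout replicate 3. Egfr, the receptor for EGF, TGF-alpha, amphiregulin and epiregulin (ENSMUSG00000020122, chromosome 11, 16752203 to 16918158), had 56.8, 65.9 and 80.1 CPM in the knockout and 56.2, 37.0 and 83.8 CPM in the wild-type libraries. The highest and the lowest library were both wild-type, and the log2 fold change of 0.20 ± 0.29 (adjusted p = 0.886, edgeR) became -0.05 when wild-type replicate 2 was left out and 0.54 when wild-type replicate 3 was. The fourth member of the family, Erbb4, had 0 counts in each library, which allows up to 3 counts or between 0.072 and 0.106 CPM per library.

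Met, the receptor for hepatocyte growth factor (ENSMUSG00000009376, chromosome 6, 17463800 to 17573980), had 89.1, 127 and 104 CPM in the knockout libraries and 121, 93.4 and 127 CPM in the wild-type libraries. The groups covered nearly the same range, and the log2 fold change was -0.09 ± 0.18 (adjusted p = 0.918, edgeR), or 0.02 when knockout replicate 1 was left out. Igf1r, the receptor for IGF1 and IGF2 (ENSMUSG00000005533, chromosome 7, 67952859 to 68226780), was the lowest of the 9, with 4.23, 4.06 and 6.29 CPM in the knockout and 4.94, 4.09 and 3.36 CPM in the wild-type libraries. Its higher knockout mean rested on knockout replicate 3, and the log2 fold change of 0.24 ± 0.28 (adjusted p = 0.859, edgeR) was -0.0029 without that mouse. The deposited row of Igf1r takes in only 379 of the 7267 bases (5.22%) of the 3′ UTR annotated in GENCODE M21, so reads from most of the UTR are outside the row and its level may be understated.

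**Figure D3:**
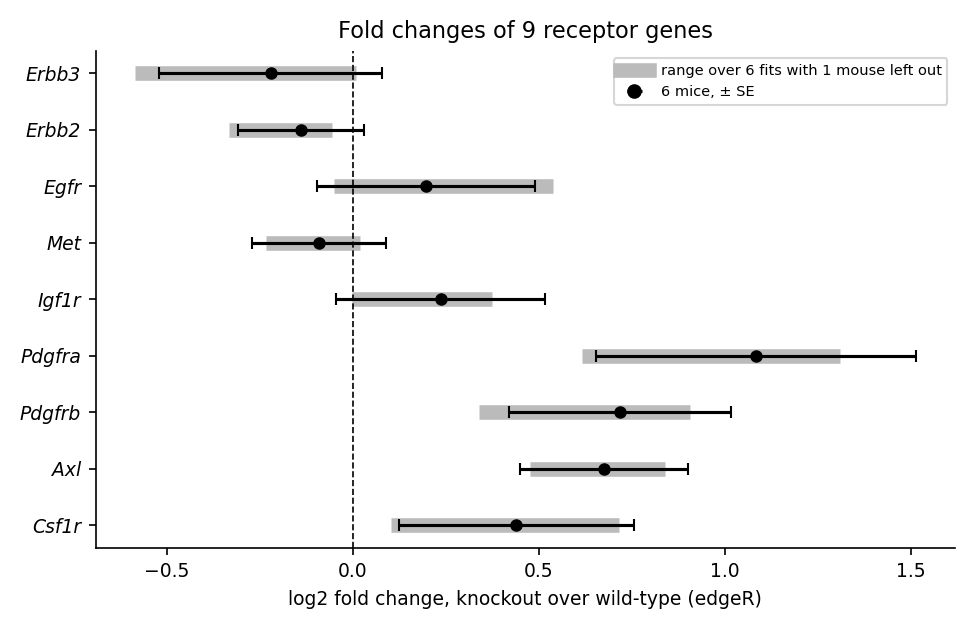
Log2 fold change of each receptor, knockout over wild-type, with its SE (black) and the range over the 6 fits that leave out 1 mouse each (grey). Pdgfra, Pdgfrb, Axl and Csf1r stay above 0 over the whole grey range, and the ranges of Erbb3, Egfr, Met and Igf1r reach across 0.

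Levels of different receptors were compared per kilobase of merged exon, as CPM per kilobase. Erbb3 was the most abundant (52.4 ± 21.4 in knockout and 61.03 ± 9.84 in wild-type tumors, SD, n = 3 each), followed by Erbb2 (28.01 ± 6.15 and 30.8 ± 1.38) and Met (13.9 ± 2.50 and 14.8 ± 2.33). The order of Erbb3, Erbb2 and Met was the same in each of the 6 libraries. Pdgfra averaged 10.5 ± 4.99 CPM per kilobase in knockout and 4.98 ± 2.06 in wild-type tumors, and Axl 8.94 ± 2.04 and 5.60 ± 1.27. Pdgfrb averaged 8.29 ± 3.27 CPM per kilobase in knockout and 5.04 ± 1.13 in wild-type tumors, Csf1r 7.0 ± 2.58 and 5.16 ± 1.60, and Egfr 5.97 ± 1.04 and 5.21 ± 2.08. From Pdgfra down to Egfr the ranges of neighbours overlapped, so no order among these 5 receptors stood beyond their spread. The ranges of Met and Pdgfra overlapped too. Met was above Pdgfra in 5 libraries, but below it in knockout replicate 3 (13.6 against 16.3 CPM per kilobase). Igf1r was the least abundant at 0.492 ± 0.126 CPM per kilobase in knockout and 0.418 ± 0.0801 in wild-type tumors, below Egfr in each library.

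Sorted by whether their longest 3′ UTR holds a 7mer or 8mer, the 6 receptors with a site included 5 with a higher knockout mean, and their median log2 fold change was 0.56. Among the 3 without a site 1 had a higher knockout mean, and their median was -0.14. With each mouse left out in turn, a check chosen after seeing the data, the median with a site was lowest at 0.22 (without knockout replicate 3) and highest at 0.78 (without wild-type replicate 3). The median without a site lay between -0.33 (without knockout replicate 2) and 0.0088 (without knockout replicate 1), with -0.05 when knockout replicate 3 was left out and -0.09 when wild-type replicate 3 was. Over all genes tested with an annotated 3′ UTR the medians were 0.06 with a site and 0.0081 without. Met, with its pair of 7mer-m8 sites, was the receptor with a site and a lower knockout mean. The split by site is also largely a split by cell type, since Axl, Pdgfra, Pdgfrb and Csf1r hold sites and Erbb2, Erbb3 and Igf1r do not, and the part of either was not tested.

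Markers of the cell types were measured in the same libraries. In bulk tissue fewer cells of a type and less RNA per cell cannot be told apart. Of 9 fibroblast markers, 8 were higher and 1 lower in knockout tumors and 0 passed the test, with a median log2 fold change of 0.76. Their summed level was 1401, 683 and 2622 CPM in the knockout and 1007, 427 and 1273 CPM in the wild-type libraries, so that knockout replicate 3 and wild-type replicate 2 held the same extreme places as for Pdgfra, Pdgfrb and Axl. All 9 pericyte and smooth muscle markers, among them Acta2, were higher (median 0.65, 0 passed), and their sums of 616, 530 and 615 CPM in the knockout libraries lay above those of 492, 233 and 389 CPM in the wild-type libraries. Macrophage markers had 9 of 11 higher with a median of 0.14 and sums of 145, 162 and 191 CPM in the knockout against 131, 169 and 185 CPM in the wild-type libraries. The 2 lower ones were C1qb, near 0 (log2 fold change -0.0033), and Cd14 (-0.56 ± 0.12, adjusted p = 0.553, edgeR). Cd14 had 18.1, 20.3 and 19.8 CPM in the knockout and 28.9, 27.7 and 28.9 CPM in the wild-type libraries. Epithelial markers had 1 of 10 higher with a median of -0.19. Endothelial markers had 5 of 6 higher with a median of 0.28, and their members differed. The log2 fold change was 0.85 for Vwf, 0.80 for Cdh5, 0.42 for Pecam1, 0.14 for Egfl7, 0.08 for Cldn5 and -0.04 for Emcn. Their sums were 223, 223 and 285 CPM in the knockout and 182, 138 and 150.01 CPM in the wild-type libraries. Markers of B and plasma cells, led by the antibody joining chain Jchain, were lower in the knockout libraries, at 251, 744 and 686 CPM against 909, 1373 and 1162 CPM in the wild-type libraries. T cell markers (0 of 4 higher, led by Cd3g) and mast cell markers (4 of 4 higher, led by Mcpt1) overlapped between the groups in their sums, and no marker of the 9 lists passed the test or was at 0 in all libraries. Their part in the receptor values was not tested beyond the ratios that follow.

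Each receptor was therefore set against the markers of the cell types it is best known from, as its log2 level minus the mean log2 level of the markers, with 0.5 CPM added to each value. Pdgfra relative to the fibroblast markers was 0.52, 1.13 and 0.84 in the knockout libraries, against 0.51, 0.24 and 0.40 in the wild-type libraries. The groups did not overlap but knockout replicate 1 and wild-type replicate 1 almost met, and the difference was 0.45 (exact two-sided permutation p = 0.1, the smallest that 3 against 3 mice allow, and 0.55 after Benjamini-Hochberg adjustment over the 11 ratios). With the median of the markers in place of the mean the groups overlapped (difference 0.22, exact permutation p = 0.5), and without knockout replicate 2 the difference was 0.30. Relative to the same markers, Pdgfrb differed by 0.03 (exact permutation p = 0.9) and Axl by 0.03 (exact permutation p = 1), and both differences changed sign when the median of the markers replaced the mean. Relative to the pericyte and smooth muscle markers, Pdgfrb differed by -0.11 (exact permutation p = 0.8). Set against the macrophage markers, Axl was 2.13, 1.87 and 2.01 in the knockout and 1.85, 1.10 and 1.58 in the wild-type libraries. Those groups did not overlap, with a difference of 0.49 (exact permutation p = 0.1, adjusted 0.55). With the median of the markers they overlapped (difference 0.29, exact permutation p = 0.3), and the difference was also 0.29 without wild-type replicate 2. Csf1r differed by 0.24 relative to the macrophage markers (exact permutation p = 0.2), by 0.04 with the median of the markers (exact permutation p = 0.8), by 0.13 without knockout replicate 3 and by 0.40 without knockout replicate 1.

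The epithelial receptors were compared in the same way with the 10 epithelial markers. Egfr relative to them was -4.20, -4.28 and -3.61 in the knockout and -4.37, -4.95 and -4.07 in the wild-type libraries, and the groups overlapped (difference 0.43, exact permutation p = 0.4). Erbb2 differed by 0.01 (exact permutation p = 0.9), Erbb3 by -0.12 (exact permutation p = 0.8), Met by 0.08 (exact permutation p = 0.7) and Igf1r by 0.37 (exact permutation p = 0.5). The sign for Erbb2 and Met turned when the median of the markers was used, and the differences for Egfr and Igf1r were then 0.21 and 0.15. The Egfr difference was 0.19 when wild-type replicate 2 was left out and 0.22 when knockout replicate 3 was. The Igf1r difference became 0.11 when knockout replicate 3 was left out and 0.15 when wild-type replicate 3 was.

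**Figure D4:**
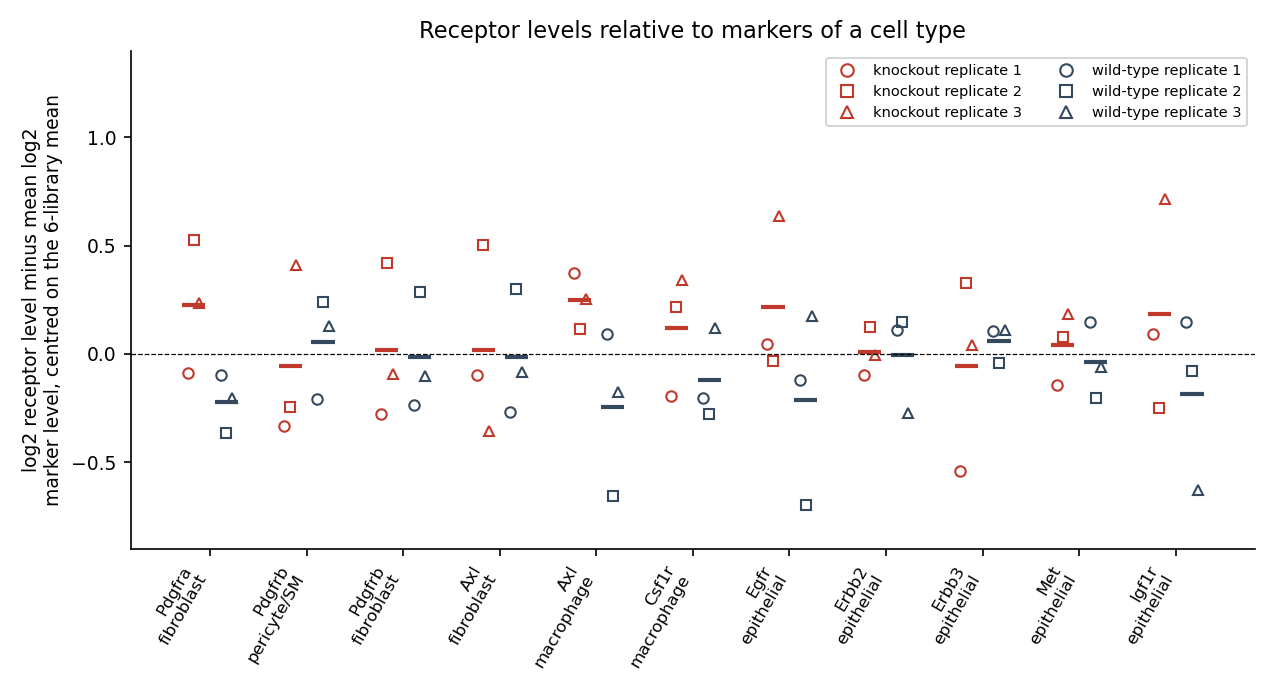
Log2 level of a receptor minus the mean log2 level of the markers of a cell type (named under each receptor), centred on the mean of the 6 libraries, with knockout libraries (red) left of wild-type libraries (dark blue) and bars at group means. The groups separate for Pdgfra against fibroblast markers and for Axl against macrophage markers, and overlap in the other 9 ratios.

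Ligands of the 9 receptors were examined from a list of 22 genes, of which 21 were tested and Nrg3 fell below the count filter. Of the 21, 14 were higher and 7 lower in knockout tumors, where 51.1% of all genes tested were higher. Of these ligands 0 passed the test, and their median log2 fold change was 0.22, against 0.0073 over all genes tested. At an unadjusted p below 0.05 there were 2, and DESeq2 and limma-voom called 0, with 5 and 2 at that level. Without the share of all genes for these tools, the 5 cannot be read as many or few. Igf2, an imprinted growth factor that binds Igf1r, had 7.72, 10.04 and 15.5 CPM in the knockout and 4.41, 5.22 and 7.39 CPM in the wild-type libraries, with no overlap (log2 fold change 0.97 ± 0.33, adjusted p = 0.793, edgeR). Nrg1, the neuregulin that binds Erbb3, had 11.3, 7.50 and 19.2 CPM in the knockout and 4.50, 3.02 and 7.53 CPM in the wild-type libraries (log2 fold change 1.33 ± 0.45, adjusted p = 0.793, edgeR). Its groups met at knockout replicate 2, which lay just under wild-type replicate 3. Igf1 had 31.4, 17.3 and 59.7 CPM in the knockout and 16.9, 13.3 and 23.6 CPM in the wild-type libraries, with knockout replicate 3 again the highest (log2 fold change 1.01 ± 0.45). Pdgfb, a ligand of both PDGF receptors, had a log2 fold change of 0.40 ± 0.18.

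The most abundant ligands by CPM differed little, apart from epiregulin. Gas6, the ligand of Axl, had 56.4, 72.2 and 61.1 CPM in the knockout and 78.3, 69.5 and 61.2 CPM in the wild-type libraries (log2 fold change -0.14 ± 0.14). Tgfa, a ligand of Egfr, had a log2 fold change of 0.07 ± 0.14 and Pdgfa, which binds Pdgfra, one of -0.11 ± 0.15. Ereg, the gene of epiregulin, had 87.2, 24.8 and 110 CPM in the knockout and 17.1, 19.7 and 53.04 CPM in the wild-type libraries. Its groups overlapped by knockout replicate 2, and its log2 fold change was 1.30 ± 0.63 (adjusted p = 0.793, edgeR).

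The 7 IGF binding proteins, which carry IGF1 and IGF2 outside the cell and limit or aid their access to Igf1r, all had higher means in knockout tumors, with a median log2 fold change of 0.65. By edgeR 0 of the 7 passed, with 2 at an unadjusted p below 0.05, and limma-voom likewise called 0, with 2 at that level. Over all genes tested 51.1% had a log2 fold change above 0 and 5.85% an unadjusted p below 0.05 by edgeR. The same shares stand beside the edgeR counts of the lists below. Of the 7, Igfbp3 and Igfbp5 hold a miR-34 seed match in the 3′ UTR. Igfbp3, the main IGF carrier of the blood, had 97.7, 81.9 and 124 CPM in the knockout libraries and 54.1, 50.9 and 64.1 CPM in the wild-type libraries. These groups lay clear of each other, and the log2 fold change was 0.84 ± 0.18 (adjusted p = 0.581, edgeR). It was among the 110 genes that DESeq2 called over all genes (log2 fold change 0.84, adjusted p = 0.0207). Igfbp6 was low, with 1.09, 0.825 and 0.936 CPM in the knockout and 0.528, 0.220 and 0.476 CPM in the wild-type libraries (log2 fold change 1.21 ± 0.40), and its groups did not overlap. Every knockout value lay above every wild-type value in 5.86% of all genes tested. Igfbp4 had 706, 265 and 708 CPM in the knockout and 413, 354 and 377 CPM in the wild-type libraries. Igfbp5 had 441, 198 and 518 CPM in the knockout and 154, 90.7 and 307 CPM in the wild-type libraries. For these last 2 the groups overlapped through knockout replicate 2.

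Of the 27 adaptors and kinase relays downstream of the receptors 16 were higher and 11 lower, their median log2 fold change was 0.07, and 0 passed by edgeR, DESeq2 or limma-voom, with 1, 1 and 0 at an unadjusted p below 0.05. Irs1, the docking protein of the insulin and IGF1 receptors, had 4.23, 3.20 and 7.68 CPM in the knockout and 3.45, 2.27 and 2.04 CPM in the wild-type libraries (log2 fold change 0.96 ± 0.40). Its groups overlapped between knockout replicate 2 and wild-type replicate 1. Pik3r1, the regulatory subunit of PI3 kinase, had a log2 fold change of 0.30 ± 0.17, Mapk3 (the kinase ERK1) one of -0.27 ± 0.17 and Akt1 one of -0.0005 ± 0.12. The 8 related receptors tested had 6 higher and 2 lower with 0 called by any of the 3 tools and 0 at an unadjusted p below 0.05, and without knockout replicate 2 only 3 were higher. Among these Igf2r, which binds IGF2 without passing on a kinase signal, had a log2 fold change of 0.44 ± 0.25, Kit, the stem cell factor receptor of mast cells and pacemaker cells, one of 0.52 ± 0.34, and Mst1r, the relative of Met, one of -0.10 ± 0.17.

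Of 15 genes that limit receptor signals, 11 were higher and 4 lower with a median log2 fold change of 0.11, and 0 passed by edgeR, DESeq2 or limma-voom (1 each at an unadjusted p below 0.05). Cblc, an epithelial ubiquitin ligase that marks activated receptors for removal, had 59.7, 69.1 and 63.4 CPM in the knockout and 75.1, 97.6 and 89.4 CPM in the wild-type libraries. Each knockout value lay below each wild-type value, and the log2 fold change was -0.45 ± 0.13 (adjusted p = 0.793, edgeR). Over all genes tested, 922 (5.34%) had every knockout value below every wild-type value. Its relative Cbl had a log2 fold change of 0.49 ± 0.25, the ubiquitin ligase Nedd4 one of 0.30 ± 0.22 and the receptor phosphatase Ptprj one of 0.26 ± 0.19.

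The 16 genes known to be induced by ERK signaling included 12 higher and 4 lower in knockout tumors, their median log2 fold change was 0.22, and 0 passed by the 3 tools (1 each at an unadjusted p below 0.05). Ccnd1, the gene of cyclin D1, a reported miR-34 target whose 3′ UTR also held a seed match, had 156, 123 and 138 CPM in the knockout and 122, 107 and 104 CPM in the wild-type libraries. The groups were apart by less than 1 CPM, and the log2 fold change was 0.32 ± 0.13 (adjusted p = 0.793, edgeR). Spry4, a feedback inhibitor of receptor signaling, had 29.3, 11.5 and 37.4 CPM in the knockout and 16.1, 14.7 and 15.3 CPM in the wild-type libraries, with knockout replicate 2 the lowest and the other knockout libraries the highest (log2 fold change 0.76 ± 0.39). The phosphatase Dusp6 had a log2 fold change of 0.32 ± 0.18 and the transcription factor Etv5 one of 0.16 ± 0.47. A 7mer or 8mer was held by 7 of 21 ligands, 1 of 8 related receptors and 2 of 7 IGF binding proteins. The same was true of 14 of 27 adaptors and relays, 7 of 15 inhibitors and 1 of 16 ERK response genes, against 22.8% of all genes. UTR length was not matched for these lists. Besides Igfbp3, Igfbp5 and Ccnd1, the genes named from these 6 lists with a match were Igf1, Igf2, Nrg1, Tgfa, Pik3r1, Akt1 and Cbl. Matches in cell type markers and in the other genes named are not given. The fold changes of Tgfa and Akt1 were near 0.

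**Figure D5:**
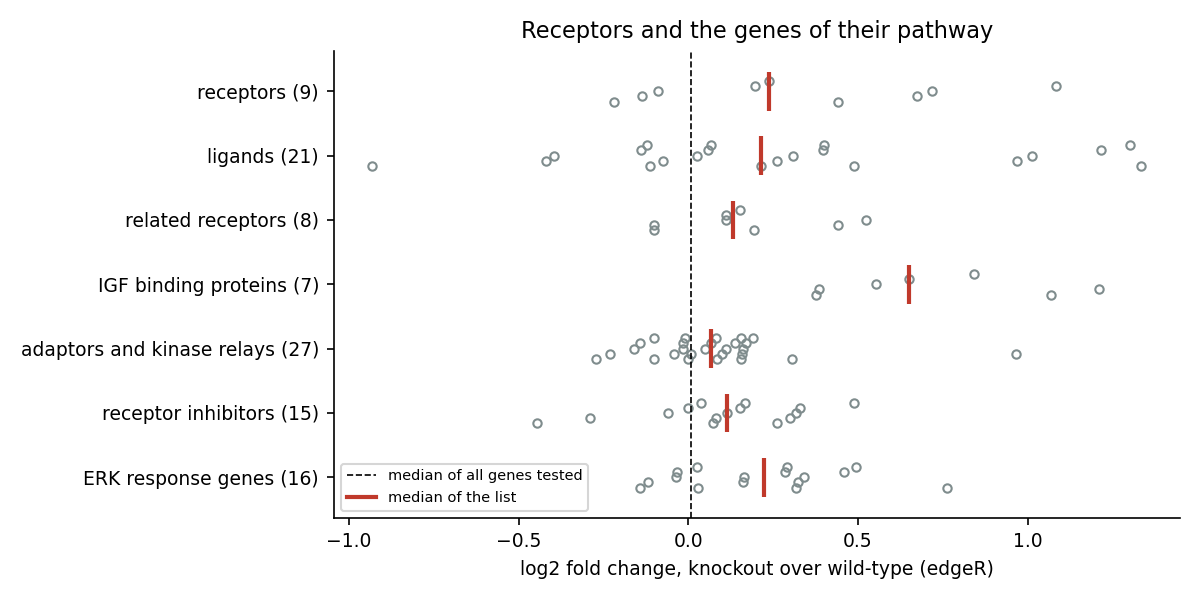
Log2 fold change, knockout over wild-type, of each tested gene (grey circles, spread vertically for sight only) in the receptor group and 6 lists of pathway genes, with the number tested in parentheses and the list median in red. The IGF binding proteins all lie right of the median of all genes tested (dashed, 0.0073), and the adaptors and kinase relays cluster around it.

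For each receptor the gene with the most similar pattern over the 6 libraries was sought among 11585 other genes (11586 for Igf1r) with a mean of at least 5 CPM, by Pearson r of log2 CPM. These were Lamb1 for Axl (r = 0.998), Zfyve16 for Pdgfra (r = 0.998), Hdac4 for Pdgfrb (r = 0.995) and Stab1 for Csf1r (r = 0.989). For the epithelial receptors they were Galnt6 for Erbb3 (r = 0.997), Rhou for Erbb2 (r = 0.994), Sec61a1 for Egfr (r = 0.997), Mlph for Met (r = 0.996) and Ppfibp1 for Igf1r (r = 0.986). Lamb1 encodes a laminin chain of basement membranes, and Stab1 a scavenger receptor of macrophages and endothelium. The points share the same 6 libraries. Between 9 genes (for Csf1r) and 136 genes (for Pdgfra) had an r above 0.95, so the order among the closest genes carries little weight.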

How the data were processed

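RNA from small intestinal adenomas of 6 mice was sequenced, and the authors deposited raw counts per Ensembl gene, with a separate table for each library. The submitters' processing notes list mm10, TopHat2 2.1.0 and HTSeq 0.6.1. The sources used here do not give the annotation release, the strand setting or the handling of reads with several alignments. Groups and replicate numbers came from the titles. Symbols, exons and 3′ UTRs came from GENCODE M21 (GRCm38), which gave a symbol to 45143 of 46078 identifiers. Coordinates are those of the deposited rows with the first base as 1. Exon lengths were counted inside each deposited row. No library was a duplicate of another of its group, since chi-square over degrees of freedom was 47.0 to 223 for such pairs. Overlap with other genes was looked up for the receptors alone.

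Genes were filtered with filterByExpr and scaled by TMM (factors 0.914 to 1.09), and knockout was compared with wild-type by edgeR 4.0.16 (quasi-likelihood, robust, R 4.3.3) with Benjamini-Hochberg adjustment over all 17254 genes. SE is the size of the log2 fold change over the square root of F. The alternatives were scaling by library size alone or by DESeq2 size factors, other count filters, DESeq2 1.42.0, limma-voom (limma 3.58.1), a replicate block, an adjusted p of 0.1 and each mouse left out. Ratios to markers used exact permutation tests (scipy 1.17.1). The fit was tested on simulated counts. A count of 0 allows up to 3 counts, and such limits cover counting error only.

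The receptors, gene lists and markers were chosen with earlier results of these data known. Named genes were all 9 receptors, the 4 ligands, and 2 genes of each other list, with the smallest p and as many with the highest mean CPM, the closest gene to each receptor by r, and the top marker of a list, of which 1 is not reported here. Further members of the endothelial, macrophage and Wnt target marker lists were named to show how the members of a list differed. Hgf and other list members are covered by the counts.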

Additional observations from a re-analysis of the deposited data

How the results depend on the processing

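No receptor passed an adjusted p of 0.05 in any of the 13 alternative fits, or at an adjusted p of 0.1. Over these fits the log2 fold changes of Pdgfra, Pdgfrb, Axl and Csf1r kept a positive sign, and that of Erbb2 a negative one. With 1 mouse left out, the values ranged from -0.23 to 0.020 for Met, from -0.0029 to 0.37 for Igf1r, from -0.051 to 0.54 for Egfr and from -0.59 to 0.0088 for Erbb3, so that their direction turned with a single mouse. The lowest adjusted p of a receptor was 0.160, for Axl without knockout replicate 2 (0.160 to 1.00 over the 13 fits). Over all genes 16 were called, 110 with DESeq2 and between 9 and 41 with 1 mouse left out. Relative to markers, the difference with 1 mouse left out ranged from -0.34 to 0.029 for Pdgfrb against pericyte and smooth muscle markers, from -0.17 to 0.18 for Pdgfrb and from -0.21 to 0.22 for Axl against fibroblast markers. Against epithelial markers it ranged from -0.12 to 0.089 for Erbb2, from -0.31 to 0.13 for Erbb3 and from -0.0034 to 0.17 for Met. With the median of the markers the differences were -0.20 for Pdgfrb and -0.19 for Axl against fibroblast markers, and -0.21 for Erbb2 and -0.14 for Met against epithelial markers. The cause was not tested. Pdgfra against fibroblast markers ranged from 0.22 to 0.60 over its 8 alternatives, and its groups overlapped with the median of the markers (exact permutation p = 0.5). Of the receptors, 6 held a seed match in the longest or in any annotated 3′ UTR, 4 an 8mer and 8 a 6mer or longer. Per kilobase of the longest transcript, Pdgfrb and Csf1r traded the sixth and seventh places. The deviations of same-numbered mice correlated at 0.218, 0.273 and 0.081. Each wild-type mouse was closest to the knockout mouse of its own number, but knockout replicate 3 was closer to wild-type replicate 1 (0.179). The titles do not say whether the numbers pair the mice, and these values cannot settle it. With a replicate block 14 genes and 0 receptors were called. In that fit the SE fell from 0.23 to 0.11 for Axl and from 0.43 to 0.23 for Pdgfra. It fell from 0.30 to 0.15 for Pdgfrb and from 0.32 to 0.12 for Csf1r. In this order the unadjusted p was 0.00097, 0.0040, 0.0045 and 0.012, and the adjusted p 0.21, 0.31, 0.32 and 0.39 (edgeR). The SE also fell for Egfr, Erbb2 and Erbb3, and rose for Met and Igf1r. This fit is apt only if the numbers pair the mice. Igf1r rested on the fewest counts of the 9 receptors, between 120 and 262 per library, and has the widest counting error.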
